A study of Mus musculus with 4 samples.

Results

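The 9 genes that encode the core subunits of cohesin in mouse were followed through oocyte growth. They were taken by name from the 25587 reference genes listed with RNA-Seq values, and all 9 were found. The meiosis-specific group held 4 genes, Rec8, Rad21l, Stag3 and Smc1b, and the mitotic group held 5, Rad21, Stag1, Stag2, Smc1a and Smc3. RNA of wild-type oocytes from C57BL/6Babr mice was depleted of ribosomal RNA and sequenced as 1 library per stage: non-growing oocytes (NGOs, 5 dpp, days post-partum), growing oocytes of 8 to 14 dpp (GO1) and of 15 dpp (GO2), and fully grown oocytes at the germinal vesicle stage (FGOs, 20 dpp). Libraries of NGOs and FGOs, each from a pool of many oocytes, used dUTP second-strand marking and those of GO1 and GO2 with the ScriptSeq v2 kit, so stage and protocol cannot be told apart between these pairs, and changes were computed only within a protocol, NGOs to FGOs or GO1 to GO2. With 1 library per stage there was no replicate check, and no p-value was computed.

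Cohesin is a ring that holds sister chromatids together and extrudes chromatin loops. A pair of SMC proteins, SMC1 and SMC3, is closed by a kleisin, to which a STAG protein binds. Germ cells also have meiosis-specific paralogs of the kleisin, SMC1 and STAG subunits, while SMC3 is shared by all forms of the ring. In female meiosis the rings that join sister chromatids are loaded before birth, and the arrested oocyte must keep them until the meiotic divisions, when separase cuts the REC8 kleisin.

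The deposited values are RPKM, a read number divided by exon length in kilobases and by a total set for each library. Low values were whole multiples of what 1 read is worth, from which the counts behind each value were recovered. The totals so found ranged from 110595208 in NGOs to 241385716 in GO2, and between 61447407 counts (NGOs) and 132611038 counts (GO2) fell on genes. Levels carry an exact Poisson 95 % interval of the counts, and 3 counts were taken as the limit that a count of 0 allows. Since the reads carry no molecular identifiers and may be copies of 1 molecule, intervals hold for counting error alone. In every library the counts on genes exceeded the uniquely mapped reads that the paper gives, so fragments were on average counted more than once. The intervals are therefore too narrow by an unknown factor. They would be about 2 times as wide if each fragment had been counted 4 times. The 11 oocyte markers, such as the egg coat gene Zp2, each had at least 3 counts in every library, with a summed RPKM of 8045 in NGOs, 5885 for GO1, 5419 in GO2 and 4887 for FGOs. The 6 stromal markers summed to an RPKM of 5.51 in NGOs and to 0.158 to 0.245 in the other libraries, 8 granulosa cell markers to 5.96 to 18.9, 3 endothelial markers to 1.81 to 9.81 and 3 blood markers to at most 1.18, the last in NGOs. In bulk RNA, fewer cells of a type and less RNA per cell cannot be told apart.

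The kleisin genes differed most in level. Rec8, the kleisin whose cleavage releases meiotic cohesion, had almost no counts in these libraries. Its RPKM was 0.0230 in NGOs (7 counts, interval 0.00926 to 0.0475), 0.00287 for GO1 (1 count), 0 in GO2, which allows a level of up to 0.00452, and 0.00304 for FGOs (1 count). NGOs were therefore the only library in which Rec8 passed 3 counts. Rad21, the mitotic kleisin, had an RPKM of 8.51 in NGOs, 19.0 for GO1, 16.2 in GO2 and 11.1 for FGOs, which was 369-fold above Rec8 in NGOs (interval of the ratio 179 to 919), at least 3585-fold in GO2 against the 3-count limit (a one-sided bound), and, on 1 count of Rec8 each, 6637-fold in GO1 (1191 to 262165) and 3654-fold in FGOs (655 to 144348). Rec8 lies on chromosome 14 (55618037 to 55625395, plus strand, GRCm38), and the 3′ end of the opposite-strand gene Ipo4 lies 4 bp beyond it, with an RPKM of 9.04 in NGOs, 1.73 for GO1, 1.69 in GO2 and 2.51 for FGOs. Both genes were highest in NGOs, the strand setting of the counting is not given in the sources used here, and the part of Ipo4 reads in the Rec8 counts was not tested.

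Rad21l, a kleisin made in meiotic prophase, was well above Rec8. Its RPKM was 6.33 in NGOs (5.97 to 6.71), 9.14 for GO1 (8.73 to 9.55), 6.42 in GO2 (6.17 to 6.67) and 3.98 for FGOs (3.71 to 4.27). It was highest in GO1 and lowest in FGOs, and the intervals of NGOs and GO2 overlapped. As a ratio of RPKM, Rad21l stood at 0.745 of Rad21 in NGOs (0.696 to 0.796), 0.480 for GO1 (0.456 to 0.504), 0.396 in GO2 (0.379 to 0.413) and 0.358 for FGOs (0.332 to 0.386). Rad21 was thus the higher kleisin in every library. Rec8 and Rad21l together made up 42.8 % of the summed kleisin RPKM in NGOs, 32.4 % for GO1, 28.4 % in GO2 and 26.4 % for FGOs, of which Rec8 contributed at most 0.155 %, in NGOs. A ratio within 1 library does not depend on how libraries are scaled to each other.

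**Figure D1:**
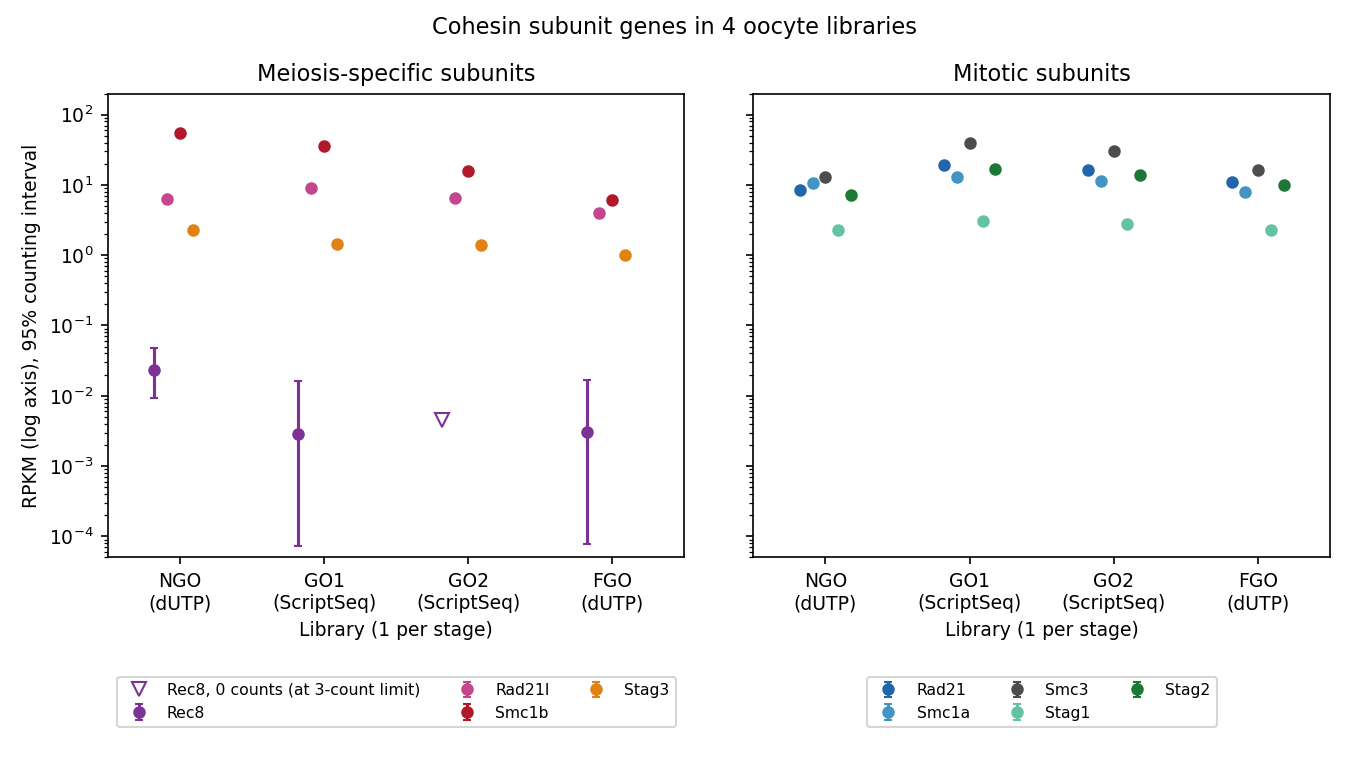
RPKM (log axis) of the 4 meiosis-specific (left) and 5 mitotic (right) cohesin genes in the 1 library of each stage, with 95 % counting intervals that are mostly smaller than the points; the open triangle puts Rec8, with 0 counts in GO2, at its 3-count limit. Rec8 lies below 0.1 in every library, and Smc1b descends from 54.5 in NGOs to 6.02 in FGOs, while the mitotic genes are highest in GO1.

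Smc1b, the meiosis-specific SMC1 paralog, had the widest range of the 8 genes with enough counts for a fold, Rec8 being left out. Its RPKM was 54.5 in NGOs (53.8 to 55.2), 36.0 for GO1 (35.5 to 36.5), 15.7 in GO2 (15.5 to 15.9) and 6.02 for FGOs (5.81 to 6.25). In NGOs it was the highest of the cohesin genes and stood at percentile 98.1 of all listed genes, and in FGOs at percentile 80.0. Smc1a, the SMC1 of mitotic cells, had an RPKM of 10.6 in NGOs, 12.9 for GO1, 11.2 in GO2 and 7.85 for FGOs. The highest library exceeded the lowest 9.05-fold for Smc1b and 1.65-fold for Smc1a.

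At the SMC1 position the order of the paralogs in FGOs was the reverse of that in the other libraries. The ratio of Smc1b to Smc1a was 5.12 in NGOs (4.99 to 5.26), 2.78 for GO1 (2.71 to 2.85), 1.40 in GO2 (1.37 to 1.43) and 0.767 for FGOs (0.733 to 0.803). Smc1b made up 83.7 % of the summed SMC1 RPKM in NGOs, 73.6 % for GO1, 58.3 % in GO2 and 43.4 % for FGOs. Smc1b was the higher paralog in NGOs, GO1 and GO2, and Smc1a was the higher one in FGOs. Within the dUTP pair, the change in the log2 ratio of Smc1b to Smc1a from NGOs to FGOs was -2.74 (interval -2.82 to -2.66), and within the ScriptSeq pair, from GO1 to GO2, it was -0.99 (-1.04 to -0.94). Smc1b lies on chromosome 15 (85064691 to 85131957, minus strand) and overlaps the opposite-strand gene Gm10923, whose RPKM did not exceed 0.0391 in any library.

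Among the STAG genes, whose products bind the kleisin and help to place the ring on chromatin, Stag2 was highest in every library. Stag3, the meiosis-specific member, had an RPKM of 2.30 in NGOs (2.18 to 2.42), 1.42 for GO1 (1.34 to 1.51), 1.40 in GO2 (1.34 to 1.46) and 1.01 for FGOs (0.939 to 1.09). Stag1 had an RPKM of 2.28 in NGOs, 3.02 for GO1, 2.75 in GO2 and 2.31 for FGOs, and Stag2 of 7.14, 17.0, 14.05 and 10.05 in the same order. Stag3 was thus highest in NGOs, where its interval overlapped that of Stag1, and its GO1 and GO2 levels could not be distinguished by counting error. The ratio of Stag3 to Stag1 was 1.01 in NGOs (0.946 to 1.08), 0.471 for GO1, 0.508 in GO2 and 0.439 for FGOs. The ratio of Stag3 to Stag2 was 0.322 in NGOs (0.304 to 0.340), 0.0835 for GO1, 0.0995 in GO2 and 0.101 for FGOs. Stag3 therefore made up 19.6 % of the summed STAG RPKM in NGOs, against 6.63 % for GO1, 7.68 % in GO2 and 7.58 % for FGOs.

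**Figure D2:**
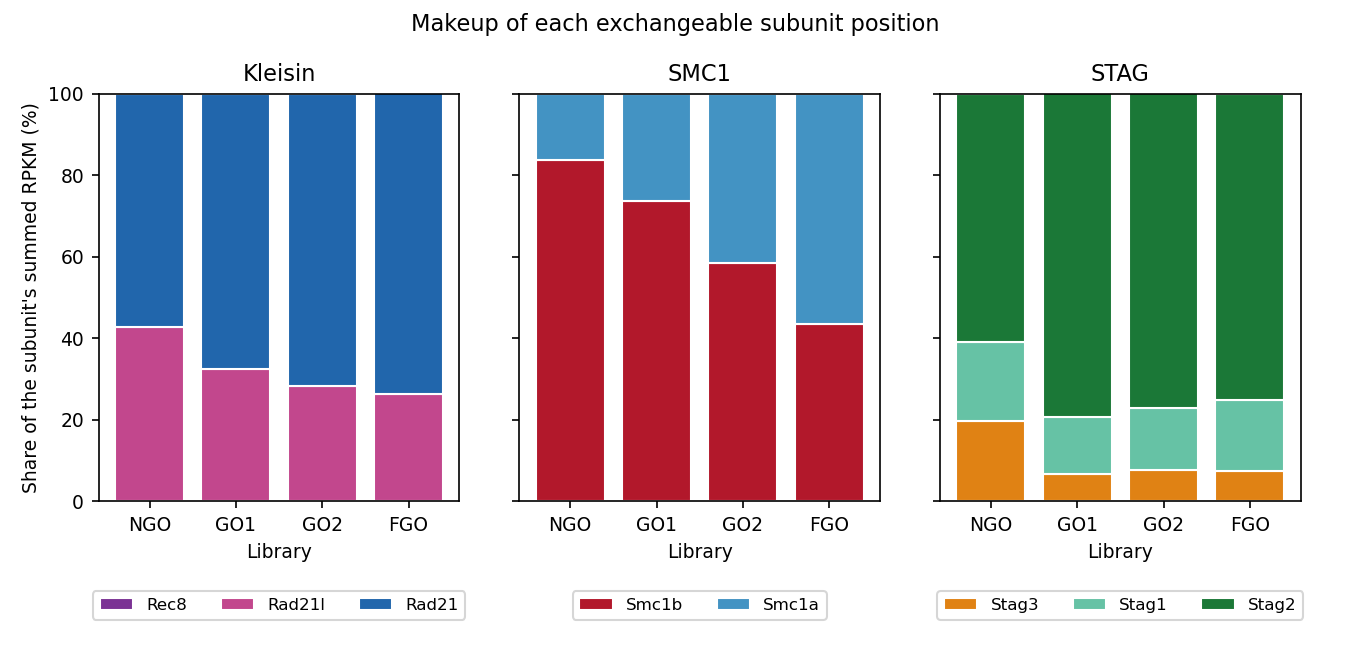
Share (%) of the summed RPKM at the kleisin, SMC1 and STAG positions taken by each gene in each library; the bars of 1 library add up to 100 %. The Smc1b share falls below that of Smc1a in FGOs, Rad21 is the largest kleisin and Stag2 the largest STAG gene in all 4 libraries, and Rec8 is too small to be seen.

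**Figure D3:**
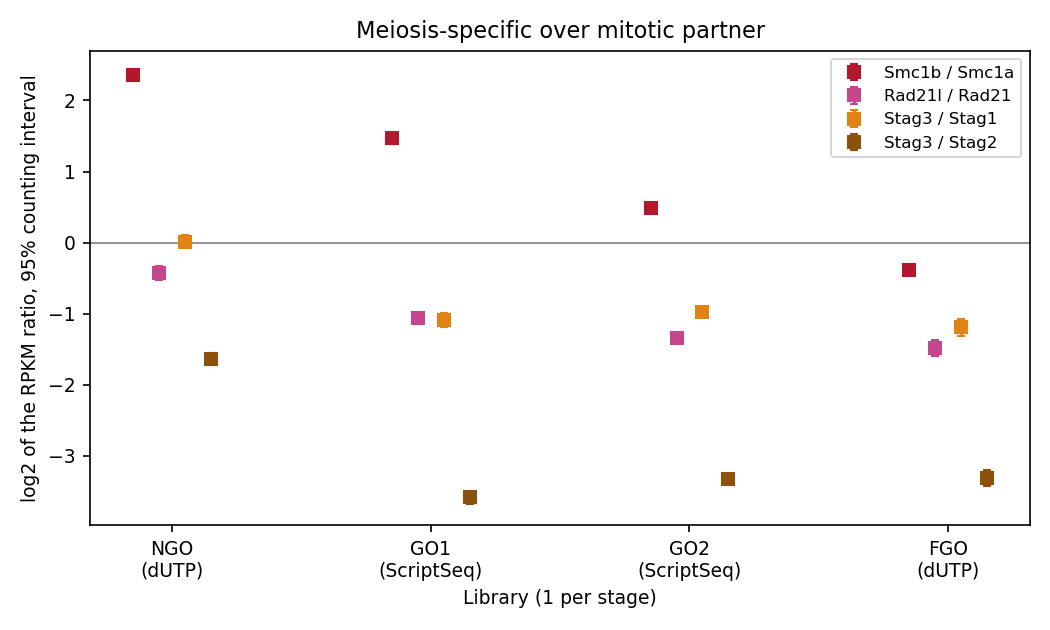
Log2 ratio of the RPKM of each meiosis-specific gene to a mitotic partner in each library, with 95 % counting intervals; the line at 0 marks equal levels. Smc1b over Smc1a lies above the line in NGOs, GO1 and GO2 and below it in FGOs, and Stag3 over Stag2 is highest in NGOs. GO2 and FGOs differ in protocol as well as stage. Rec8 is not drawn.

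Smc3, the SMC subunit common to all forms, had an RPKM of 13.0 in NGOs (12.7 to 13.3), 39.3 for GO1 (38.9 to 39.8), 30.5 in GO2 (30.2 to 30.8) and 16.2 for FGOs (15.8 to 16.5). It was the highest cohesin gene in GO1, GO2 and FGOs and came after Smc1b in NGOs. Set against Smc3, the summed SMC1 genes stood at 5.00 times its RPKM in NGOs, 1.24 times for GO1, 0.883 times in GO2 and 0.859 times in FGOs. The summed kleisin genes stood at 1.14, 0.717, 0.742 and 0.935 times the RPKM of Smc3 in the same order, and the summed STAG genes at 0.899, 0.546, 0.597 and 0.828 times. NGOs were thus the library in which SMC1 RNA exceeded that of its obligate partner by the widest margin.

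In the order of the 9 genes by RPKM, Smc1b had the widest range. It was at place 1 in NGOs, place 2 in GO1, place 3 in GO2 and place 5 in FGOs. Smc1a came before Rad21 and Stag2 in NGOs and after both in the other libraries. Stag3 came before Stag1 in NGOs, where their intervals overlapped, and after it in the others. In GO2 the intervals of Smc1b and of Rad21, which came before it, overlapped. Rad21l came at place 6 in every library, and Rec8 came last. The interval of Rad21l overlapped that of Stag2, its neighbour in NGOs, only with 4 counts per fragment. All 5 mitotic genes and Rad21l had their highest RPKM in GO1, and the other 3 meiosis-specific genes had it in NGOs. Because GO1 and NGOs differ in protocol as well as stage, these maxima are descriptions of the libraries.

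The comparison of the dUTP libraries asked which cohesin genes changed between the start and the end of oocyte growth. A change is the log2 ratio of counts (prior count 1) after trimmed-mean scaling of the libraries, and was computed where a gene had 20 or more counts over the pair; 8 of the 9 genes passed, all but Rec8. From NGOs to FGOs, Smc1b was 8.71-fold lower (log2 change -3.12, interval -3.18 to -3.07) and Stag3 2.18-fold lower (-1.12, -1.26 to -0.99), so that 2 of the 8 were past 2-fold lower, while 16.8 % of the 15273 genes tested were. None of the 8 was past 2-fold higher, against 17.7 % of all genes. With so few genes, these counts are not read as a result about the group. The interval of Stag3 reached just inside 2-fold. Rad21l came next with a log2 change of -0.62 (-0.75 to -0.48).

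The mitotic genes were all within 2-fold over the same pair. The log2 change was -0.38 (-0.44 to -0.33) for Smc1a, 0.08 (-0.00 to 0.15) for Stag1, 0.36 (0.32 to 0.41) for Smc3, 0.44 (0.38 to 0.50) for Rad21 and 0.55 (0.50 to 0.59) for Stag2. Each of the 3 meiosis-specific genes tested was lower in FGOs, and 4 of the 5 mitotic genes had a value above 0. The interval of Stag1, 1 of these 4, included 0. Over all genes tested, 49.5 % of values were above 0. With so few genes, these counts of signs are not read as a result about the classes. The median log2 change was -1.12 over these 3 meiosis-specific genes and 0.36 over the 5 mitotic ones, beside -0.01 over all genes tested. The value of 0.36 is that of Smc3, which is grouped as mitotic here although all forms of the ring share it. Over the same pair the summed RPKM of the oocyte markers went from 8045 to 4887. Bmp15 (131 to 414) was the only oocyte marker higher in FGOs, and Gdf9 went from 1009 to 974. Among the others, Figla went from 102 to 20.6, Ddx4 from 67.4 to 28.4, Zp2 from 2261 to 1052 and Zp3 from 1772 to 820. The stromal and blood markers went from 5.51 to 0.245 and from 1.18 to 0.0162, and the granulosa and endothelial markers from 5.96 to 18.9 and from 1.81 to 9.81. Pecam1 went from 1.74 to 9.70, Nr5a2 from 3.62 to 8.65 and Cyp19a1 from 0.518 to 6.08. Most of the granulosa and endothelial sums came from these genes. Foxl2 (0.0753 to 0.0265) was the only granulosa marker lower in FGOs, and Cdh5 (0.0408 to 0) the only endothelial one. The part of such cells in the values of Smc1b and Stag3 was not tested.

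From GO1 to GO2, both made with ScriptSeq, Smc1b was again past 2-fold lower, by 2.36-fold (log2 change -1.24, -1.27 to -1.21). It was 1 of the 8 genes tested, against 3.14 % of the 15754 genes tested in this pair, and none was past 2-fold higher, against 6.5 % of all genes. The log2 change was -0.55 (-0.64 to -0.46) for Rad21l, -0.41 for Smc3, -0.32 for Stag2, -0.27 for Rad21, -0.25 for Smc1a and -0.18 for Stag1. That of Stag3 was -0.07 (-0.18 to 0.04), an interval that includes 0. All 8 values were below 0, while 50.3 % of the values over all genes tested were above 0. The median was -0.55 over the 3 meiosis-specific genes tested and -0.27 over the mitotic ones, beside 0.00 over all genes. The pair NGOs to FGOs and the pair GO1 to GO2 have no library in common, and Smc1b had the lowest value of the 8 in each.

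**Figure D4:**
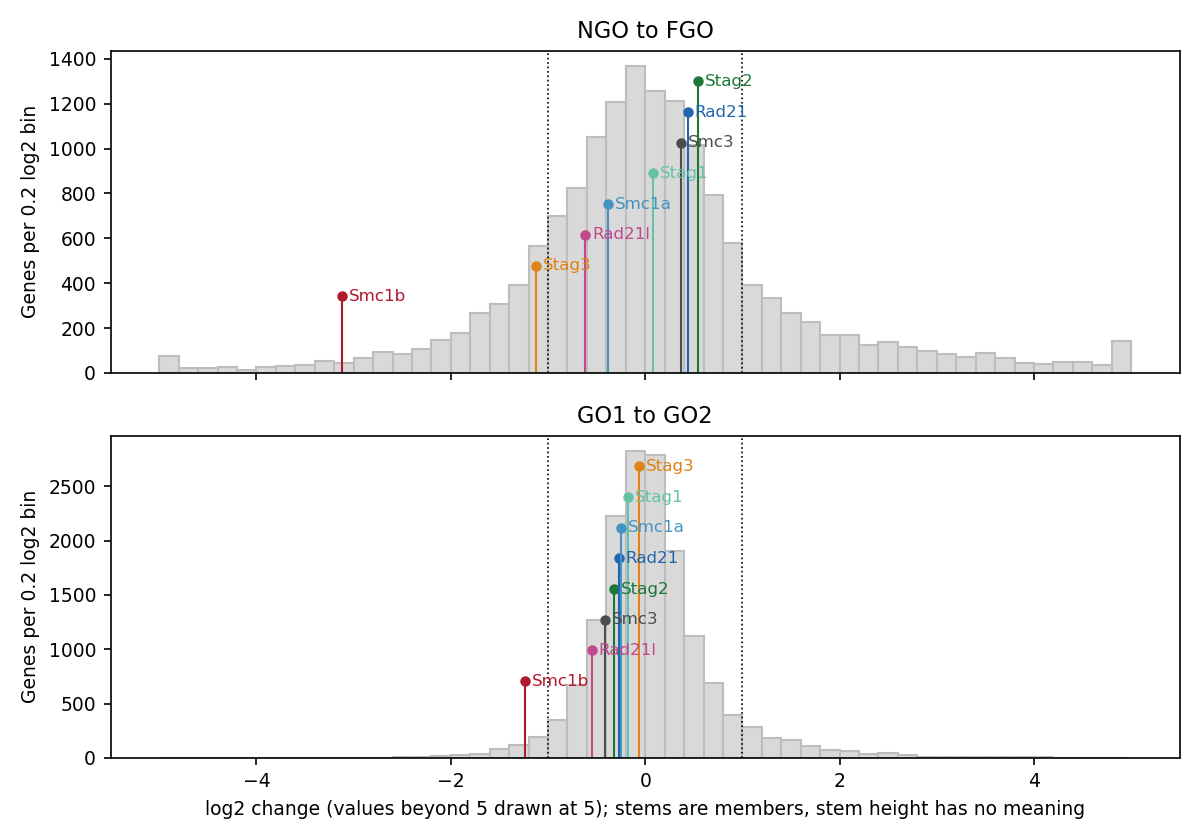
Histograms of the log2 change of all tested genes (grey) from NGOs to FGOs (top) and GO1 to GO2 (bottom), with the 8 tested cohesin genes as stems whose height has no meaning; dotted lines mark 2-fold. Smc1b, at -3.12 and -1.24, is the leftmost cohesin gene in both panels, and the mitotic genes lie between the dotted lines.

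The ratios to mitotic partners were compared in the same pairs. From NGOs to FGOs the change in log2 ratio was -1.06 for Rad21l to Rad21 (interval -1.20 to -0.91), -1.20 for Stag3 to Stag1 (-1.35 to -1.05) and -1.67 for Stag3 to Stag2 (-1.81 to -1.53). From GO1 to GO2 it was -0.28 for Rad21l to Rad21 (-0.37 to -0.18), 0.25 for Stag3 to Stag2 (0.14 to 0.36) and 0.11 for Stag3 to Stag1 (-0.01 to 0.23). The ratio of Smc1b to Smc1a and that of Rad21l to Rad21 were thus lower in the later library of each pair, whereas for Stag3 this held from NGOs to FGOs and not from GO1 to GO2. For Rec8 no change is given, since its levels in GO1, GO2 and FGOs lie under 3 counts.

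The promoters of the meiosis-specific genes are shown because Smc1b and Stag3 were both past 2-fold lower from NGOs to FGOs, because Rec8 had almost no counts and because Rad21l differs from the others in base composition. RefSeq (GRCm38.p6) holds the 300 bases from 250 before to 50 after the start for 7 of the 9 genes, all but Rad21 and Stag2. Sequences run 5′ to 3′ in the direction of the gene, and capitals mark matches to CACGTG (E-box), TTCCCGCG (an E2F-type element) or TCTCGCGA (a CGCG element), on either strand. They come from chr15:85131908-85132207, minus strand (Smc1b), chr5:138280259-138280558, plus strand (Stag3), chr14:55617916-55618215, plus strand (Rec8) and chr2:151668484-151668783, minus strand (Rad21l).
Smc1b: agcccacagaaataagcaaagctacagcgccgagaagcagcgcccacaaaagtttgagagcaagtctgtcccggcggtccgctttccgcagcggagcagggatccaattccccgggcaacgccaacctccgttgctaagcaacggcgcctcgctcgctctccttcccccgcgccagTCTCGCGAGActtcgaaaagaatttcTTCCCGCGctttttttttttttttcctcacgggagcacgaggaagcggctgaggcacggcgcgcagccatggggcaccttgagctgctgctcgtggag
Stag3: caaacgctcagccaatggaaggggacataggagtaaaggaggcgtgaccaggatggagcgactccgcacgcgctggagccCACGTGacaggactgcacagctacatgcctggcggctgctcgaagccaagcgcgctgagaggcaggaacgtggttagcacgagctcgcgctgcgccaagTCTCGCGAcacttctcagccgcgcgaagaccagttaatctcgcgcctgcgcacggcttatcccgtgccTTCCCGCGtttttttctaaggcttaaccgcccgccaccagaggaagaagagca
Rec8: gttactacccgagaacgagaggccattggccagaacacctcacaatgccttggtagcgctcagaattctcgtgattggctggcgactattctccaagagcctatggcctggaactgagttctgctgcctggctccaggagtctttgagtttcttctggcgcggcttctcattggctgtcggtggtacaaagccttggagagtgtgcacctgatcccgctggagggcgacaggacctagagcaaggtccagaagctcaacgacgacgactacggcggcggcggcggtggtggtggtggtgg
Rad21l: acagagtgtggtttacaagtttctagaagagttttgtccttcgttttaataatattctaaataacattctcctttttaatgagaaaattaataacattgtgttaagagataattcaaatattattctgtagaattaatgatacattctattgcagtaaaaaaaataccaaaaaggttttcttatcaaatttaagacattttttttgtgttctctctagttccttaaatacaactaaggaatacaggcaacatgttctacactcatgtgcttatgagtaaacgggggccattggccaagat

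In Smc1b, TTCCCGCG lies at bases -48 to -41 from the start and TCTCGCGA at -74 to -67, with its reverse complement overlapping it at -72 to -65. In Stag3, TTCCCGCG lies at -3 to 4, the first base of the transcript being counted as 0, TCTCGCGA at -71 to -64 and CACGTG at -170 to -165. TTCCCGCG was found in 4 of the 7 promoters (Smc1b, Stag3, Smc1a and Stag1) and in 1.01 % of the 32851 RefSeq promoters, and TCTCGCGA in 2 (Smc1b and Stag3) and in 0.995 %. These 2 motifs were chosen after the sequences had been read, so their counts are descriptions. Both motifs contain CGCG, and the promoters that hold them had 23 (Smc1a) to 43 (Stag1) CpGs, beside a median of 7. The share over all promoters is therefore not a background matched for base composition. CACGTG was found in 1 of the 7 and in 7.15 % of all promoters. CNCCTCAG, the STRA8 motif, which 7.94 % of promoters hold, and TTCCCGCC, an E2F motif that shares its first 7 letters with TTCCCGCG and is held by 2.19 %, were in none of the 7. The GC content was 60.0 % in Smc1b, 61.3 % in Stag3, 58.3 % in Rec8 and 29.0 % in Rad21l, with 29, 30, 18 and 2 CpGs, beside medians of 52.7 % and 7 over all promoters. The RefSeq starts of Rec8, Stag1 and Stag3 lie inside the genes as the deposited table bounds them, and the windows of Stag1 and Stag3 lie wholly inside. Whether oocytes use the RefSeq starts, and whether the motifs bear on the RNA levels, was not tested.

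The genes that load, lock, protect and cut cohesin were followed as a list of 19, of which 18 are in the table (Sgo2b was not matched). From NGOs to FGOs, 17 had 20 counts, 1 was past 2-fold higher and none past 2-fold lower, beside 17.7 % and 16.8 % of all genes. Esco1, an acetyltransferase that locks the ring by modifying SMC3, had an RPKM of 17.1 in NGOs, 39.2 for GO1, 42.8 in GO2 and 43.0 for FGOs, and it was 2.62-fold higher in FGOs than in NGOs (log2 change 1.39, 1.35 to 1.42). Cdca5 (sororin, which counters ring release) at 0.99 (0.96 to 1.02) and Hdac8 (the SMC3 deacetylase) at 0.97 (0.85 to 1.10) lay just under 2-fold, with intervals that reach past it. The list had 12 values above 0 and 5 below, while 49.5 % of the values over all genes tested were above 0. Its median was 0.63 beside -0.01 over all genes.

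By role, the log2 changes from NGOs to FGOs were as follows. The loaders Nipbl and Mau2 had -0.07 and -0.06, and the release factors Wapl, Pds5a and Pds5b had 0.56, -0.50 and -0.39. The acetyltransferases Esco1 and Esco2 had 1.39 and 0.80, Cdca5 had 0.99 and the opposing deacetylase gene Hdac8 0.97. Of the protectors of centromeric cohesin, Sgo1 had 0.79, Sgo2a 0.67 and Meikin, a meiosis-specific kinetochore protein, 0.63, and the phosphatase subunits Ppp2r5a and Ppp2r5c had 0.42 and 0.35. Separase, Espl1, had -0.13, its inhibitor Pttg1 0.70 and the chromatin partner Ctcf 0.70. From GO1 to GO2, none of 18 regulators was past 2-fold in either direction, beside 6.5 % of genes higher and 3.14 % lower, with a median of 0.12 beside 0.00. The lowest value there was -0.61, for Nipbl, and the highest 0.50, for Hdac8. Ctcfl, the germline paralog of Ctcf, had 3 counts in NGOs and 2 in FGOs and was tested only from GO1 to GO2.

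Several regulators had a higher RPKM than most subunits. Esco2 had an RPKM of 39.9 in NGOs and 67.0 for FGOs, and Pttg1 (securin, the separase inhibitor) of 73.0 and 114. Cdca5 had 54.4 in NGOs, 29.4 for GO1, 38.2 in GO2 and 104 for FGOs, and so was higher in both dUTP libraries than in both ScriptSeq libraries. Espl1, the protease that cuts REC8, had 23.5, 10.8, 12.9 and 20.6 in the same order, against an RPKM of at most 0.0230 for Rec8 itself. Sgo2a, the protector of REC8 at centromeres, had 8.94, 20.0, 17.4 and 13.7.

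**Figure D5:**
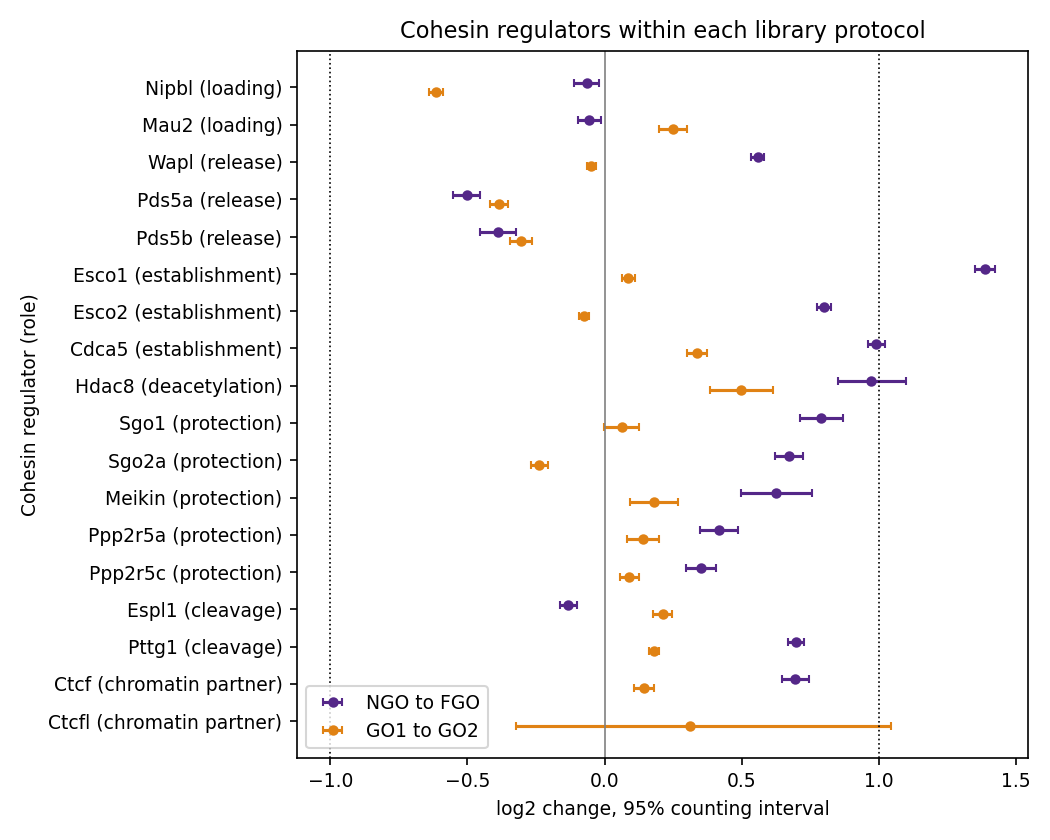
Log2 change of each cohesin regulator, with its role, from NGOs to FGOs (purple) and from GO1 to GO2 (orange), with 95 % counting intervals; dotted lines mark 2-fold and the grey line no change. Esco1, at 1.39, is the only point past a dotted line, and all orange points lie between -0.61 and 0.50.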

How the data were processed

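RNA-Seq data of 4 oocyte stages were analysed, 1 library each. Per the labels, reads were trimmed with Trim Galore 0.2.8 and mapped to GRCm38 with TopHat2 2.0.9. The authors deposited RPKM on a linear scale, although the table was named for read counts and counts had been planned for; its annotation, counting program and strand setting are not given in the sources used here.

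Counts were recovered in Python 3.11.15 (numpy 2.4.6, pandas 2.3.3, scipy 1.17.1; plots with matplotlib 3.10.9). Library totals were fitted on 2016 single-exon GENCODE M21 genes, whose values above 0 were whole within 0.05 in 99.4 to 99.7 % of cases. For other genes the exon length that made counts whole in all libraries was taken, with preference for GENCODE lengths. In simulated data 95.8 % of 337 lengths were recovered. Of 25587 genes, 8065 have the smallest fitting length, Rec8, Rad21 and Stag1 among them, whose counts could be a whole multiple of those given; RPKM is unaffected. No length was found for 22 genes.

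Changes used library scaling by the trimmed mean of log ratios (30 % of ratios and 5 % of mean expression trimmed at each end), a prior count of 1, a minimum of 20 counts over a pair and a 2-fold threshold. In simulated data all 200 genes changed 4-fold were called (100 %) in each pair, with 64 unchanged genes called of 15271 from NGOs to FGOs and 97 of 15753 from GO1 to GO2. Ratios of 2 counts have exact binomial (Clopper-Pearson) 95 % intervals, and changes of ratios a normal approximation on the log scale.

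All 9 subunit genes are named, and of the regulator, condensin and SMC5/6 lists each gene past 2-fold; other genes named were chosen after their values were seen. Members and lists were chosen with earlier results of these data known. Sgo2b and Eid3 were not matched.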

Additional observations from a re-analysis of the deposited data

How the results depend on the processing

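No paired analysis was possible because each stage has 1 library, and no library could be left out. Of the gene counts, 30 stayed within 1.5 times under the other scalings, prior counts, filters and pseudocounts, and 6 did not. From NGOs to FGOs, 1 cohesin gene (Smc1b, lower) passed a 4-fold threshold and 1 (Smc1b) was past 2-fold with an RPKM pseudocount of 1, under which the value of Stag3 was -0.71. From GO1 to GO2, 2 were past 2-fold lower with no filter on low counts, the second being Rec8 on 1 count, and 0 passed 4-fold. Of the regulators from NGOs to FGOs, 3 (Esco1, Cdca5 and Hdac8) were past 2-fold higher under median scaling and 0 passed 4-fold. With a pseudocount of 0.1 on RPKM, the log2 ratio of Rec8 to Rad21 was -6.13 in NGOs, -7.54 for GO1, -7.35 in GO2 and -6.77 for FGOs, values set by the pseudocount, and that of Stag3 to Stag2 -3.24 in GO2 and -3.19 in FGOs; the other 33 ratio values moved by less than their counting interval. Of the single gene changes, 297 stayed within their interval and 110 did not, all of these under other scalings or RPKM pseudocounts; no ratio or single gene change took the other sign. The all-gene median moved by under 0.1 and crossed 0 under some settings. Over all genes, 2701 were higher and 2560 lower from NGOs to FGOs and 1024 and 494 from GO1 to GO2; these became 1310 and 848, and 218 and 43, at 4-fold; 3723 and 4113, and 2024 and 1463, with no filter; and 887 and 749, and 58 and 32, with a pseudocount of 1. With the deposited RPKM unscaled, the NGO to FGO numbers were 2571 and 2725, so that the larger direction differed, as it did with no filter. From GO1 to GO2 they were 554 and 219 with at least 100 counts and 398 and 114 with a pseudocount of 0.1. Depth limits Rec8 alone among the 9 genes. Without a second library of any stage, differences between oocyte collections could not be measured.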

Other observations

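The other SMC complexes were measured beside cohesin. Of the 8 condensin genes, whose products compact chromosomes for division, none was past 2-fold from NGOs to FGOs or from GO1 to GO2. Over all genes, 17.7 % were past 2-fold higher and 16.8 % lower in the first pair, and 6.5 % and 3.14 % in the second. The condensin medians were 0.17 and -0.04 on the log2 scale, beside -0.01 and 0.00 over all genes. With so few genes, these counts are not read as a result about the complex. Smc4, an ATPase of both condensins, had an RPKM of 63.4 in NGOs, 161 for GO1, 152 in GO2 and 90.0 for FGOs, above every cohesin subunit gene in each library. Its partner Smc2 had 22.2, 27.9, 23.7 and 14.8. From NGOs to FGOs, Smc4 and Smc2 had log2 changes of 0.56 (0.54 to 0.58) and -0.53 (-0.56 to -0.49), respectively. Both genes were singled out after their values were seen.

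The SMC5/6 complex acts in DNA repair, and 6 of its 7 listed genes were in the table. Nsmce3 had an RPKM of 5.37 in NGOs, 5.31 for GO1, 6.996 in GO2 and 10.7 for FGOs. It was 2.07-fold higher in FGOs than in NGOs (log2 change 1.05, 0.99 to 1.11). It was the only 1 of the 6 past 2-fold, beside 17.7 % of all genes higher and 16.8 % lower. The log2 changes of Smc5 and Smc6 were -0.13 and 0.27. From GO1 to GO2 none of the 6 was past 2-fold, beside 6.5 % of all genes higher and 3.14 % lower. The median there was -0.11, beside 0.00 over all genes. These counts, too, are not read as a result about the complex.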
